A study of Homo sapiens with 6 samples.

Results

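The 45S, 28S and 18S ribosomal RNA (rRNA) rows of the RNA-seq table of siPSF-treated SH-SY5Y cells are described here. They are 9 of the 27 rows whose biotype column reads rRNA, in a table of 21301 genes. They were chosen by that column and by their symbols, RNA45SN1, RNA45SN2 and RNA45SN3 for the precursor, RNA28SN1, RNA28SN2 and RNA28SN3 for 28S, and RNA18SN1, RNA18SN2 and RNA18SN3 for 18S. A gene is in the table only with a count of at least 1 in every library, and all 9 rows passed the filter on low counts. SH-SY5Y is a human neuroblastoma cell line. Its cells received either siControl or siPSF, an siRNA against the RNA-binding protein PSF (gene SFPQ), both at 10 nM and for 72 h, and 3 libraries were made per group. Both groups were grown in the same medium with fetal bovine serum and came from 1 parental line, and 1 siRNA stands for the knockdown. The libraries were called biological triplicates by the authors.

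rRNA is the RNA core of the ribosome. RNA polymerase I transcribes a long precursor, 45S, from tandem rDNA repeats in the nucleolus, and nucleases cut away its spacers to release 18S of the small subunit and 5.8S and 28S of the large subunit. Neither the precursor nor the mature rRNAs carry the long poly(A) tail of an mRNA, and the nuclear exosome, helped by the TRAMP complex, trims and degrades precursor fragments.

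The 3 copies in the table lie on chromosome 21 of GRCh38, each with the same order of segments. RNA45SN1 lies at chr21:8433222-8446572, RNA45SN2 at chr21:8205988-8219302 and RNA45SN3 at chr21:8389035-8402343, all on the plus strand. Spacers make up between 46.8% and 46.9% of each 45S row, and the remainder is the sequence of 18S, 5.8S and 28S, so a read from a mature part matches both a precursor row and a mature row. The ends of the mature rRNAs are shown because a read can be told to come from precursor only where it reaches past them into spacer. In the following stretches of the RNA45SN1 copy, read 5′ to 3′ from the hg38 sequence at RefSeq positions, capitals mark the bases kept in the mature rRNA.
5′ external spacer to 18S (chr21:8436846-8436905): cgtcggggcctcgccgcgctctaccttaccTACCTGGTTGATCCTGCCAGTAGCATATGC
18S to internal spacer 1 (chr21:8438715-8438774): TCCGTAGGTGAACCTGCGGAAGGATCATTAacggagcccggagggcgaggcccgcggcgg
internal spacer 2 to 28S (chr21:8441116-8441175): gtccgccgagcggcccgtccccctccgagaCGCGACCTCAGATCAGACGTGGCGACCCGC
28S to 3′ external spacer (chr21:8446182-8446241): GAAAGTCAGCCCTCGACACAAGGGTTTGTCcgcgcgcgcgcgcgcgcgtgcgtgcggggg
The first 3 of these stretches were the same in all 3 copies, and the last was not.

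**Figure D1:**
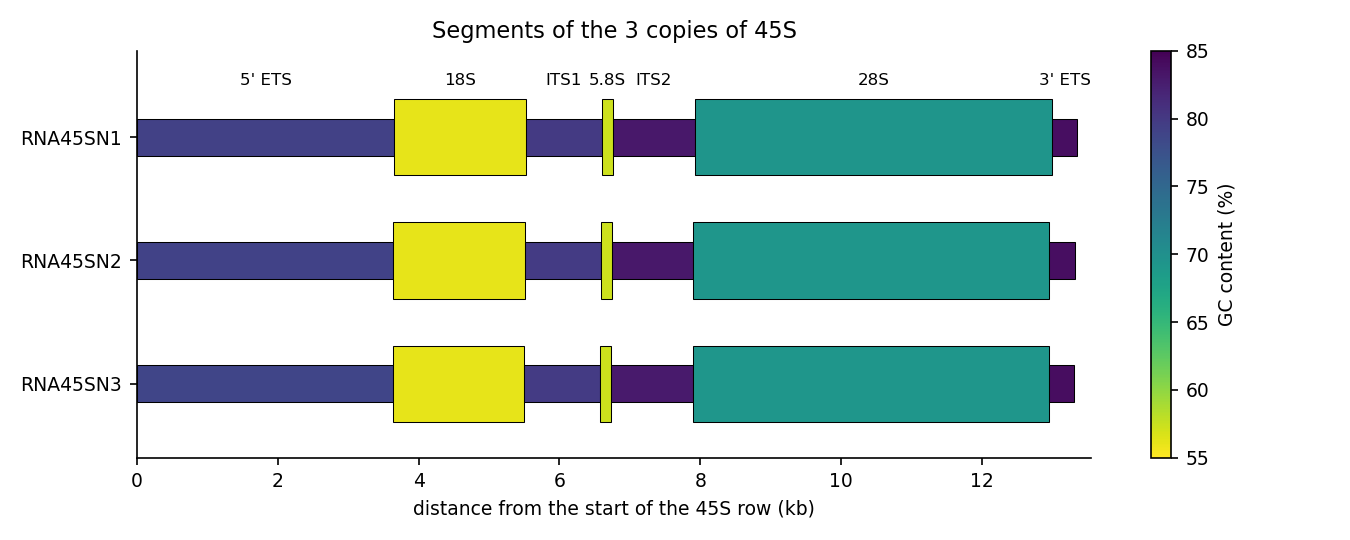
The segments of the 3 copies of 45S are drawn to scale against the distance from the start of the 45S row in kb, with mature rRNAs as tall boxes, spacers as low boxes (ETS, external; ITS, internal transcribed spacer) and GC content in percent as colour. The spacers hold between 78.8% and 84.0% GC, 28S between 69.2% and 69.4%, and 18S 56.1%.

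The copies are close to identical, which bears on every value of a single row. 18S was 99.9% identical or more between copies, 28S between 99.2% and 99.6%, and the spacers between 98.1% and 100%. Of all 50-base windows of 18S, a length chosen to stand for 1 read, 97.3% occurred in all 3 copies, against 84.9% to 85.1% for 28S and 71.1% to 71.4% for the spacers. The only difference between the 18S copies lies at base 60 of 18S. It is shown because it is the only base within 18S that could place a read, and it stands in capitals. Reads were paired-end per the study's methods, so a mate in spacer could also place a read, which single windows do not cover.
18S of copy 1 (chr21:8436915-8436955): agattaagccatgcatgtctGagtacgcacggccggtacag
18S of copy 2 (chr21:8209670-8209710): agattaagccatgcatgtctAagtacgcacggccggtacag
Copy 3 carries the sequence of copy 2 here, so RNA18SN2 and RNA18SN3 had 0 windows of their own. How the authors divided reads between copies was not given in the sources used here. The sum over copies of a class does not depend on it only if each such read was kept and counted once among these copies. Whether shared reads were dropped or placed elsewhere was not given. How reads matching both a precursor row and a mature row were divided was not given either. The class sums still depend on how these reads were divided.

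The promoters were also the same. From 250 bases before to 50 bases after the start of 45S, 0 bases differed between the 3 copies. The stretch is shown because the 3 precursor rows share it, with the transcribed bases in capitals.
promoter of RNA45SN1 (chr21:8432972-8433271): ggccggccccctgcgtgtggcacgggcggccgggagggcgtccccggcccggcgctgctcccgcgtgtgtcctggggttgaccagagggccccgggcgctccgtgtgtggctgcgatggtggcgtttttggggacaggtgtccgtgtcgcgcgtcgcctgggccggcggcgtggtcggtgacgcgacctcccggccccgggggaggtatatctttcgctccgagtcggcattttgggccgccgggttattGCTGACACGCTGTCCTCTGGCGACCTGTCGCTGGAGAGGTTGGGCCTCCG

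The libraries held between 101540520 and 132420931 counts. SFPQ stood at 372, 356 and 401 CPM (counts scaled to library size, with TMM normalization) in siControl and at 209, 193 and 165 CPM in siPSF, a log2 fold change of -0.99 (SE 0.10, adjusted p = 9.5e-05 by the quasi-likelihood test of edgeR, Benjamini-Hochberg adjusted across 19694 genes). All 12 listed markers of SH-SY5Y cells were in the table, led by DBH, the last enzyme of noradrenaline synthesis. Of them 3 were called lower in siPSF (log2 fold changes of -0.68 for DBH, -1.20 for TH and -0.46 for ELAVL4) and 1 higher (GATA3, 0.30). TH was low in level, at 0.65 to 0.84 CPM in siControl and 0.17 to 0.42 CPM in siPSF. Of 12 markers of other cell types 4 were in the table (CD14, EPCAM, COL1A1 and COL3A1), with a summed level of 10.3 to 11.1 CPM in siControl and 10.3 to 13.6 CPM in siPSF, with EPCAM called higher (log2 fold change 0.86) and COL3A1 lower (-0.71), and PTPRC of blood cells and PECAM1 of endothelial cells were not among them.

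The 45S rows were higher in siPSF and 28S was higher by less, whereas no change of 18S was detected. A 45S row also holds mature sequence, so its rise is not read as a rise of precursor RNA. Summed over copies, 45S was 2.53-fold higher, 28S was 1.39-fold higher and 18S stood at 1.01-fold. Of the 9 rows, 6 were called higher (adjusted p under 0.05), namely all 3 of 45S and all 3 of 28S, and 0 were called lower, where 6.65% of all genes tested were called higher and 14.9% were called in either direction. In 6 of 9 rows every siPSF library lay above every siControl library, which held for 16.7% of all genes tested. These 9 rows are not 9 independent measurements, since the copies share their sequence and 45S contains 28S and 18S. They were picked with these results known, so the p-values are given as values of the fit across all genes.

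Summed 45S stood at 544, 422 and 410 CPM in siControl and at 1024, 1143 and 1319 CPM in siPSF. Means were 458.5 ± 74.1 and 1162 ± 148 CPM (SD, n = 3 each). The log2 fold change was 1.34 (SE 0.13, 95% interval 1.07 to 1.62, adjusted p = 6.3e-05 by edgeR). The lowest siPSF library held more counts in the 45S rows than the highest siControl library, which was replicate 1. In bulk samples more RNA per cell and more cells rich in this RNA cannot be told apart.

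Each precursor row moved the same way. RNA45SN1 stood at 174, 142 and 133 CPM in siControl and at 381, 392 and 433 CPM in siPSF, a log2 fold change of 1.43 (SE 0.11, adjusted p = 2.9e-05 by edgeR). RNA45SN2 stood at 132, 127 and 134 CPM in siControl and at 317, 359 and 403 CPM in siPSF, with a log2 fold change of 1.45 (SE 0.10, adjusted p = 1.6e-05 by edgeR). The groups did not overlap in either row, and RNA45SN2 had the closest siControl libraries. RNA45SN3 was the most uneven of the 3, at 237, 153 and 143 CPM in siControl and 326, 393 and 482 CPM in siPSF, with a log2 fold change of 1.17 (SE 0.18, adjusted p = 0.0014 by edgeR). Without siControl replicate 1, its highest control, its log2 fold change was 1.44. Among the 14679 tested genes that averaged 1 CPM or more, the 3 rows ranked 23rd, 20th and 42nd by log2 fold change, from the highest.

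**Figure D2:**
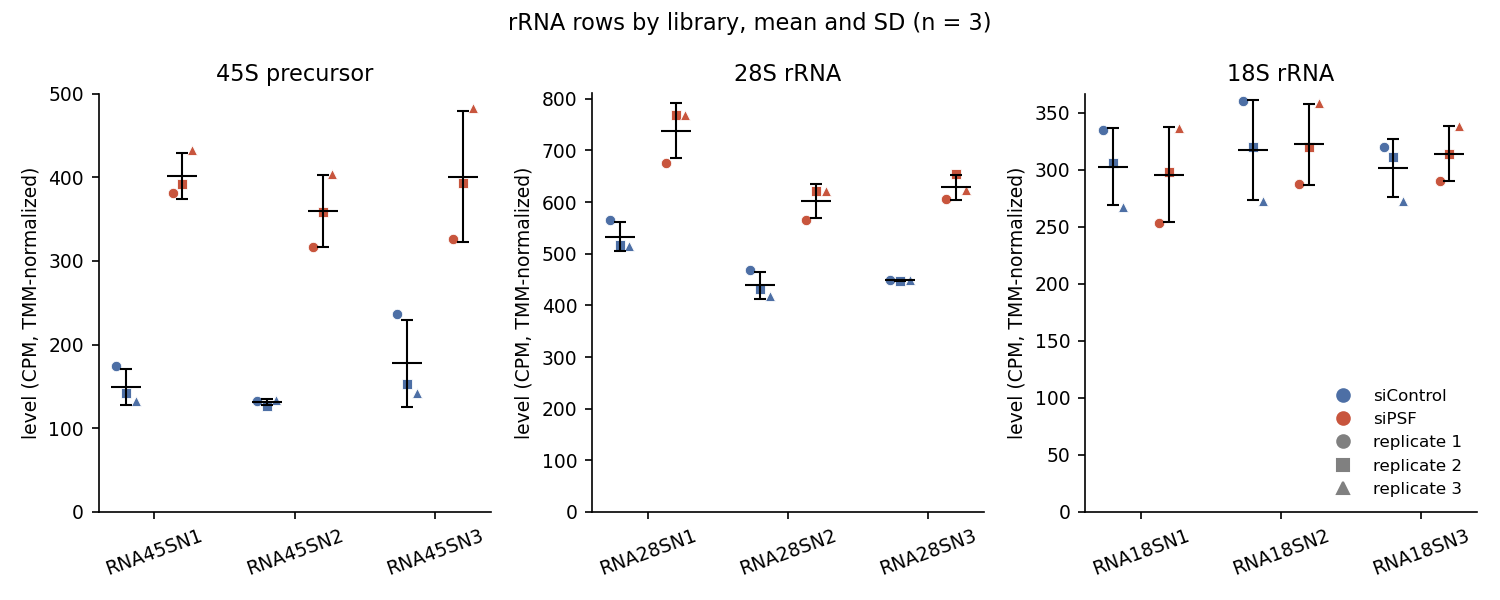
The level of each rRNA row in CPM (each panel from 0) is plotted for every library, with the mean as a bar and the SD over 3 libraries as whiskers. The siPSF libraries lie above all siControl libraries in the 45S and 28S rows, and the groups overlap in the 18S rows.

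28S, the large rRNA that forms the peptidyl transferase centre, differed by less. Summed over copies it stood at 1482, 1396 and 1383 CPM in siControl and at 1848, 2046 and 2015 CPM in siPSF, with means of 1420 ± 53.9 CPM and 1969 ± 106 CPM (SD, n = 3 each). The log2 fold change was 0.47 (SE 0.09, 95% interval 0.29 to 0.66, adjusted p = 0.0035 by edgeR). All siPSF libraries were above all siControl libraries, and the 3 rows gave nearly the same value.
RNA28SN1 stood at 565, 517 and 516 CPM in siControl and at 677, 768 and 769 CPM in siPSF, a log2 fold change of 0.47 (SE 0.09, adjusted p = 0.0042 by edgeR). RNA28SN2 was lower in level, at 468, 431 and 418 CPM in siControl and 565, 622 and 622 CPM in siPSF, with a log2 fold change of 0.46 (SE 0.09, adjusted p = 0.0042 by edgeR). RNA28SN3 stood at 449, 448 and 449 CPM in siControl and at 606, 655 and 624 CPM in siPSF, with a log2 fold change of 0.49 (SE 0.08, adjusted p = 0.0018 by edgeR). In RNA28SN3 the siControl libraries were closest to each other, within an SD of 0.62 CPM.

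18S, the rRNA of the small subunit that holds the decoding centre, was not called in any of its 3 rows. Summed, it stood at 1016, 938 and 813 CPM in siControl and at 832, 932 and 1035 CPM in siPSF, with means of 922 ± 102 CPM and 933 ± 102 CPM (SD, n = 3 each). The log2 fold change was 0.02 (SE 0.11, adjusted p = 0.94 by edgeR), and its 95% interval ran from -0.22 to 0.25. The groups overlapped over nearly their whole range, and the upper end of this interval lay below the lower end of the interval for 28S.
RNA18SN1 stood at 335, 306 and 268 CPM in siControl and at 253, 298 and 337 CPM in siPSF, with a log2 fold change of -0.03 (SE 0.11, adjusted p = 0.88 by edgeR). RNA18SN2 stood at 360.5, 320 and 272 CPM in siControl and at 288, 320 and 359 CPM in siPSF, with a log2 fold change of 0.02 (SE 0.11, adjusted p = 0.93 by edgeR). RNA18SN3 stood at 320, 312 and 273 CPM in siControl and at 290.2, 314 and 339 CPM in siPSF, with a log2 fold change of 0.06 (SE 0.09, adjusted p = 0.72 by edgeR). In each of the 3 rows siControl replicate 1 and siPSF replicate 3 were the highest libraries of their groups.

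**Figure D3:**
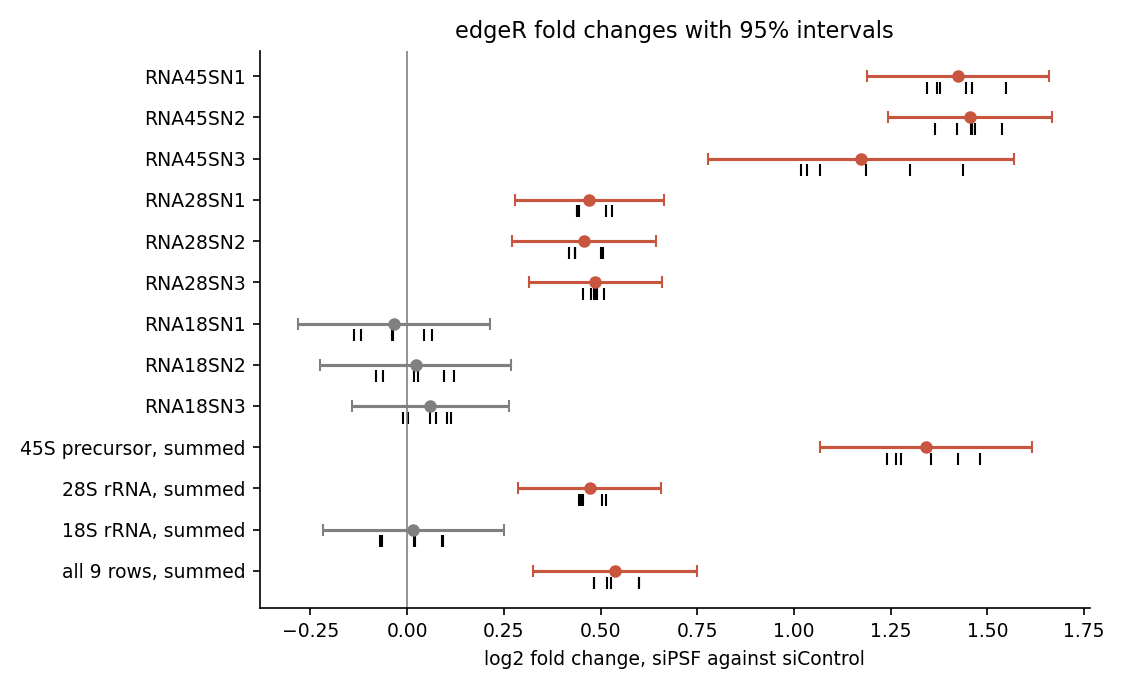
Points give the log2 fold change of siPSF against siControl for the 9 rows and for their sums, bars the 95% interval, red a row called at an adjusted p under 0.05 and grey one that was not. Black ticks under a point give the values when each library was left out, and for summed 45S they run from 1.24 to 1.48.

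The precursor was then set beside the mature rRNAs within each library, as counts per kb of the row. A 45S row contains the 18S and 28S sequence, so these ratios describe how reads were assigned to rows. 45S amounted to 9.76%, 8.14% and 8.69% of the mean of 28S and 18S in siControl, and to 19.0%, 19.0% and 20.8% in siPSF. The mean was 8.86 ± 0.82% in siControl and 19.6 ± 1.04% in siPSF (SD, n = 3 each), a difference of 1.15 on the log2 scale. The groups did not overlap, and an exact permutation test over libraries (two-sided) gave p = 0.1, the smallest that 3 libraries against 3 can give. Against 28S alone 45S averaged 12.2 ± 1.49% in siControl and 22.4 ± 2.15% in siPSF, and against 18S alone 6.96 ± 0.61% and 17.5 ± 0.37% (SD, n = 3 each), again with p = 0.1 in the exact permutation test. Each copy taken by itself gave the same order, with a mean ratio to mature rRNA of 8.36% and 19.9% for copy 1, of 7.74% and 18.5% for copy 2 and of 10.6% and 20.5% for copy 3 in siControl and siPSF. The copies share most of their sequence, so their agreement is not separate support.

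The mature rRNAs also stood in another proportion to each other. 28S amounted to between 53.9% and 62.8% of 18S per kb in the siControl libraries and to 82.1%, 81.1% and 71.9% in the siPSF libraries. Group means were 57.2 ± 4.87% and 78.4 ± 5.60% (SD, n = 3 each), 0.45 apart on the log2 scale, with no overlap and p = 0.1 in the exact permutation test. A ribosome carries 1 molecule of 28S and 1 of 18S, and the ratio was under 100% in all 6 libraries.

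**Figure D4:**
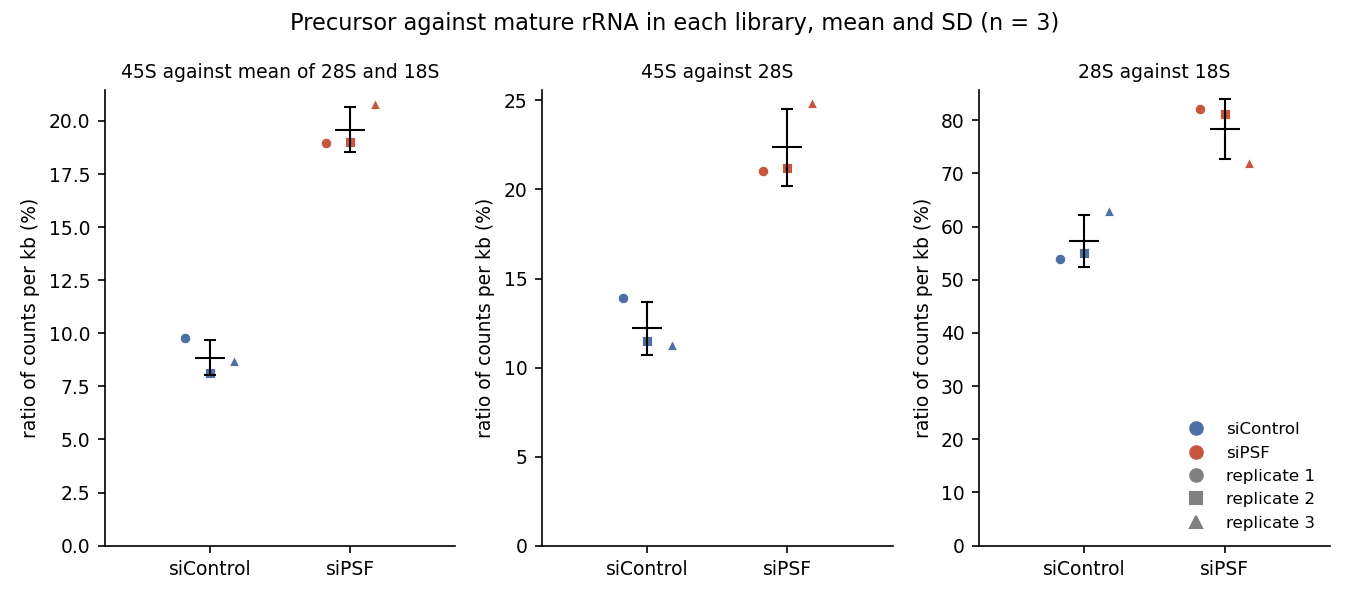
The ratio of counts per kb in percent is plotted per library, for 45S against the mean of 28S and 18S, 45S against 28S and 28S against 18S, with the mean and SD over 3 libraries. In each panel all siPSF libraries lie above all siControl libraries, and replicate 3 of each group comes closest in the panel of 28S against 18S.

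All 9 rows together took 0.311%, 0.278% and 0.274% of the library counts in siControl and 0.365%, 0.397% and 0.424% in siPSF. The exact permutation test gave p = 0.1, and the 95% Wilson intervals, which cover counting error only, were at most 0.0025 percentage points wide. Among the counts of the 9 rows, 45S took 17.9%, 15.3% and 15.7% in siControl and 27.7%, 27.7% and 30.2% in siPSF. The part of 28S overlapped between groups, at 48.7% to 53.1% in siControl and 46.1% to 49.9% in siPSF, and that of 18S did not, at 31.2% to 34.0% in siControl and 22.5% to 23.7% in siPSF. The rows hold what was left of rRNA after poly(A) selection and after any removal of rRNA reads. The study's methods state such a removal, but whether it was applied to this table was not settled. How completely each segment was removed was not tested.

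Per length and summed over copies, 18S was the most abundant of the 3 classes and 45S the least in every library. On the FPKM scale, the 18S rows ranged from 137 to 178 in siControl and from 121 to 169 in siPSF, the 28S rows from 78.2 to 103 and from 99.8 to 133, and the 45S rows from 8.74 to 16.4 and from 21.2 to 31.8. The order of the classes held for every single row in siControl beyond the spread of the libraries, whereas in siPSF RNA28SN1 (129 ± 8.02 FPKM) and RNA18SN1 (139.6 ± 18.5 FPKM) lay within an SD of each other (SD, n = 3 each). Between copies of a class the counts were divided evenly, at 30.5% to 35.5% for 18S and 30.2% to 38.2% for 28S. The precursor copies ranged more widely, from 24.4% for RNA45SN2 to 43.6% for RNA45SN3, both in siControl replicate 1.

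Other rRNA rows held few counts. 5.8S lies within 45S between the internal spacers, and its row RNA5-8SN2 held 4, 4 and 3 counts in siControl and 14, 17 and 11 in siPSF. That row passed the filter on low counts only through the siPSF libraries and so had to differ, so no fold change or test is given for it. The 13 rows of 5S, which RNA polymerase III transcribes from separate genes, held at most 10 counts each. Of the mitochondrial rRNAs, whose tails are added in the organelle, RNR1 rose from 1442 ± 188 CPM to 1884 ± 190 CPM (SD, n = 3 each; log2 fold change 0.39, SE 0.11, adjusted p = 0.036 by edgeR), a call that was lost in 6 of 12 alternative fits (adjusted p from 0.012 to 0.11). RNR2 stood at 16518 ± 1977 CPM and 19104 ± 823 CPM (SD, n = 3 each) and was not called (log2 fold change 0.21, adjusted p = 0.20 by edgeR).

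RNAs without a poly(A) tail, other than rRNA, were listed for comparison. Of 42 listed, 23 were in the table, with a summed level of 8.51 to 9.13 CPM in siControl and 10.3 to 17.5 CPM in siPSF. Of these 23, 4 held 1 count in every library, and even these had a log2 fold change of 0.21 in the fit without a filter. In that fit 17 of the 19 others had a log2 fold change above 0, and the median over all genes was 0.010. At a few counts a value slightly above 0 is therefore not read as a rise. With the filter 11 were tested, 7 of which reached its limit in every siControl library, and 3 were called higher and 0 lower, where 6.65% of all genes were called higher. SNORD3A, the U3 RNA that guides cleavage of the precursor, held 81, 72 and 65 counts in siControl and 127, 207 and 108 in siPSF (log2 fold change 1.26, adjusted p = 0.0094 by edgeR). RN7SK, which holds P-TEFb inactive, held 200, 156 and 127 counts in siControl and 247, 375 and 191 in siPSF (log2 fold change 0.99, adjusted p = 0.025 by edgeR). RPPH1, the RNA of RNase P, held 5, 6 and 2 counts in siControl and 32, 46 and 13 in siPSF, and since it passed the filter only through siPSF, its call is not read as a result. The part that carry-over of RNA without a tail had in the rRNA values was not tested.

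The 45S rows hold 72.3% to 72.5% GC. Among 572 protein-coding genes of at least 65% GC the median log2 fold change was 0.14 and 11.4% were called higher. In the 6 bins of lower GC the median ran from -0.03 to 0.05 and the share called higher from 5.55% to 7.96%, without a steady order over all 6. From the bin of 50% to 55% upward both rose. There the shares called higher were 5.55%, 6.57%, 7.96% and 11.4%, and the medians -0.03, 0.01, 0.05 and 0.14. Of those 572 genes, 4 had a log2 fold change above that of summed 45S and 90 above that of summed 28S. The part of GC content in the rRNA values was not tested.

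The genes that make and process rRNA were counted by list, where 6.65% of all genes tested were called higher and 14.9% were called in either direction. Of 21 genes of the RNA polymerase I machinery 4 rose (19.0%) and 0 fell, with a median log2 fold change of 0.12 against 0.0097 over all genes tested. They were TAF1D, a subunit of the promoter factor SL1 (log2 fold change 0.49, SE 0.09), POLR1E, a polymerase I subunit (0.47, SE 0.10), POLR1D, shared with polymerase III (0.45, SE 0.10), and POLR2K, shared by all 3 polymerases (0.38, SE 0.08), with adjusted p-values of 0.0044, 0.0070, 0.0096 and 0.0084 by edgeR. Every siPSF library was above every siControl library in each of these 4. UBTF, the promoter-bound activator with the highest level in this list, was not among the genes called.

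Among processing factors the share of genes called higher ran from 6.25% in the small subunit list, near that of all genes (6.65%), through 8.89% in the large subunit list to 23.1% among snoRNP and nucleolar proteins. Of 48 genes of small subunit processing 3 rose and 0 fell (median 0.12), namely UTP3 (log2 fold change 0.53) and DCAF13 (0.35), both of the small subunit processome, and NOB1, the nuclease that makes the final cut at the end of 18S (0.53). Of 45 genes of large subunit processing 4 rose (RSL24D1 0.56, the RNA helicase DDX54 0.50, the nucleolar protein RSL1D1 0.38 and RPF1 0.37) and 1 fell, MDN1, the ATPase that remodels the large subunit precursor (-0.35), with a median of 0.14. Of 13 snoRNP and nucleolar proteins 3 rose and 0 fell (median 0.13). NPM1, the main protein of the granular nucleolus, went from 463 ± 55.3 to 702 ± 78.5 CPM (SD, n = 3 each; log2 fold change 0.60), FBL, the methyltransferase of box C/D snoRNPs, had 0.35 and NCL 0.34. The adjusted p-values of the calls in these 3 lists ran from 0.0036 for NPM1 to 0.038 for NCL by edgeR.
Of 17 genes of the nuclear exosome and TRAMP 0 rose and 1 fell (5.88% called, against 14.9% of all genes), with a median of 0.07. It was ZCCHC7, the RNA-binding subunit of TRAMP, at 19.4, 18.1 and 20.1 CPM in siControl and 15.5, 11.8 and 10.7 CPM in siPSF (log2 fold change -0.60, SE 0.13, adjusted p = 0.012 by edgeR). The groups did not overlap for this gene.

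**Figure D5:**
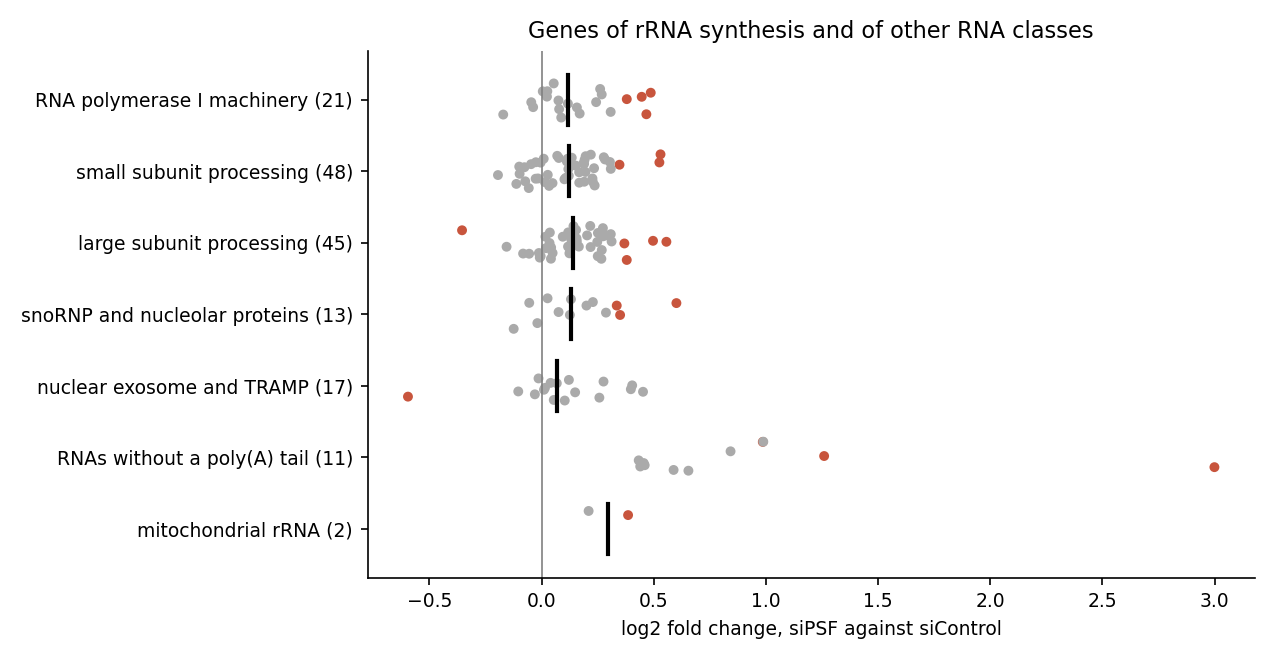
Each point is the log2 fold change of 1 gene, siPSF against siControl, by list (number of genes tested in brackets), red where called at an adjusted p under 0.05, with the list's median as a black bar where all its genes in the table were tested. Medians lie between 0.07 and 0.14 in the 5 lists of rRNA synthesis, processing and decay.

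Among the genes whose log2 CPM followed that of the 9 summed rows most closely over the 6 libraries were ALDH1B1, a mitochondrial aldehyde dehydrogenase (Pearson r 0.999), TWNK, the mitochondrial DNA helicase (0.998), SPG21 (0.997) and NPIPB3 (0.997). They were taken from 14670 genes, 413 of which had an r above 0.95, and the points share their libraries and their group difference, so this is a description. SPG21 was not called (adjusted p = 0.15 by edgeR).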

How the data were processed

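The authors deposited 1 table that gives each gene an estimated count and an FPKM in every library. Per the study's methods, poly(A)-selected libraries were sequenced, rRNA reads were removed with Bowtie 2, and the rest was mapped with TopHat to hg38 and counted on RefSeq. The submitters' processing notes name Trimmomatic, HISAT2 2.1.0, StringTie 2.1.3b and GRCh38 instead, and which of these made the table was not settled. The deposited counts of all 27 rRNA rows matched the reads implied by FPKM and RefSeq length, rounded up (162 of 162 values, tolerance 0.1 reads or 0.01%). The constant that links counts to FPKM in each library came from the 9 rows themselves. At large counts the tolerance is wider than rounding, so rounding up is seen only in rows of few counts. The counts are treated as estimated counts. The deposited FPKM values, from the authors, are counts per kb and per a constant of each library.

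Groups and replicate numbers were taken from the sample titles. Counts were filtered with filterByExpr, normalized by TMM and fitted with edgeR 4.0.16 (R 4.3.3, quasi-likelihood, no replicate block) over 19694 genes. Adjusted p-values are Benjamini-Hochberg values. A gene was called at an adjusted p under 0.05. Class sums were made before the fit. The common coefficient of variation was 12.6%. The fit was tested on simulated data. Ratios and shares were tested by exact permutation of libraries (Python 3.11.15, scipy 1.17.1).

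Alternatives were DESeq2 1.42.0 (size factors, Wald test), no filter, a replicate block, library sizes without rRNA rows, limma 3.58.1 on log2(FPKM + 0.5), single copies and each library left out. Named genes were the 9 rows, the other rRNA rows, SFPQ, up to 4 called genes per list and direction with the smallest p, and the 5 genes closest in pattern, 1 of which is not reported here. UBTF and DBH were named as the most abundant members of their lists. Members and lists were chosen with earlier results of these data known. Of 212 listed genes 185 were matched to the table. The p-values of the fits set a difference against the spread between these libraries, moderated across genes. Those of the permutation tests only rank the arrangements of these libraries.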

Additional observations from a re-analysis of the deposited data

How the results depend on the processing

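The alternative fits of the 45S, 28S and 9-row values are not independent, since copies share sequence and sums contain the same rows. Of these 108 fits, 107 kept the direction and side of the threshold. The exception was the sum of all 9 rows under limma on log2(FPKM + 0.5), at 0.19 (adjusted p = 0.17 by limma). A sum of FPKM gives the short 18S rows more weight. That fit also had no TMM, and its median log2 fold change over all genes was -0.059, against 0.0097 in the main fit. The part of each in the exception was not tested. The share of summed FPKM in the 9 rows differed by 0.0096 percentage points (exact permutation p = 0.4). Under limma the 18S values turned in sign without being called (RNA18SN2 -0.053, RNA18SN3 -0.018, summed -0.062), and 736 genes were called higher instead of 1310. The 45S ratio to mature rRNA of copy 3 alone differed by 0.97 on the log2 scale.

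Leaving out 1 library at a time gave log2 fold changes of 1.24 to 1.48 for summed 45S, 0.44 to 0.51 for summed 28S and 0.48 to 0.60 for all 9 rows, and 6 rows called higher each time. No 18S value was called, and its sign was not stable: -0.071 to 0.091 summed, -0.14 to 0.065 for RNA18SN1, -0.081 to 0.12 for RNA18SN2 and -0.012 to 0.11 for RNA18SN3. Genes called higher ranged from 572 (without siControl replicate 2) to 1405 and genes called lower from 928 (without the same library) to 1735. Calls ranged from 2 to 5 in small subunit processing, from 2 to 7 in large subunit processing, from 1 to 3 among snoRNP and nucleolar proteins, from 0 to 3 in the exosome list, from 1 to 5 among RNAs without a poly(A) tail and from 0 to 1 of the mitochondrial rRNAs.

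Whether replicate numbers pair the libraries was not settled. Correlations of same-numbered deviations were -0.04, 0.21 and 0.10, and those of differently numbered libraries ran from -0.28 to 0.18. With a replicate block, summed 45S had a log2 fold change of 1.35 (adjusted p = 0.0018 by edgeR) and 28S of 0.47 (adjusted p = 0.010 by edgeR), and calls in small subunit processing, large subunit processing and the exosome list were 6, 10 and 4. DESeq2's Wald test called 9 in large subunit processing and 4 in the exosome list. Of the mitochondrial rRNAs 0 were called without a filter and 0 by limma. The causes were not tested.

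Depth was not limiting for the 9 rows, with at least 16111 counts each per library. Counts were few for 5S, 5.8S and most RNAs without a poly(A) tail, and the reason was not tested. The rows hold what poly(A) selection and any removal of rRNA reads left, not cellular rRNA.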
